A study of Rattus norvegicus with 9 samples.

Results

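DNA replication and S phase genes were examined after knockdown of Nf1 in cultured primary Schwann cells of the rat, which are the myelinating glia of peripheral nerve. The set is a list of 42 genes given by name, and it runs from origin licensing factors through polymerases and the sliding clamp to nucleotide supply, G1/S regulators, chromatin copying and the S phase checkpoint. A gene counted as measured where a probe set was annotated to it and to no other gene, and its brightest such probe set over the 9 arrays stood for it. By that rule 39 of the 42 genes were measured, among 14213 genes in all. Cdc6, Gins2 and Rrm2 were not analysed here. The cells came from sciatic nerve and took up RNAi oligonucleotides by transient transfection, and RNA was collected 48 hours later. Control RNAi cells received scrambled oligonucleotides. NF1 RNAi cells received oligonucleotides against Nf1. NF1 RNAi + U0126 cells received the Nf1 oligonucleotides together with U0126, an inhibitor of the kinase MEK, spelled UO126 in the sample names. Each group held 3 arrays, 1 for each of 3 independent biological replicates, and r1, r2 and r3 below are their replicate numbers. No Control RNAi sample with the inhibitor was analysed here, and its effect was measured in knockdown cells only. For the age and strain of the animals, the dose of U0126, its vehicle and the oligonucleotide sequences, no value was given in the sources used here.

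Nf1 encodes neurofibromin, which switches Ras off. Ras signals through RAF, MEK and ERK, and in many cells this pathway raises cyclin D, which together with Cdk4 or Cdk6 inactivates the retinoblastoma proteins and frees E2F transcription factors to switch on S phase genes. Before S phase the origin recognition complex, Cdc6 and Cdt1 load the Mcm2 to Mcm7 helicase onto DNA, and GINS, Cdc45 and Mcm10 then activate it so that primase and the replicative polymerases can copy the strands. Schwann cells proliferate in culture and during nerve development and repair, and their transcripts for these factors are those of a dividing glial population.

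Values are log2(intensity + 1), and differences between groups are log2 differences with the standard error (SE) of a limma fit over all 9 arrays. A gene was called where its p, adjusted by Benjamini-Hochberg over 14213 genes, was under 0.05, and intervals are 95% confidence intervals of the difference. A level is not compared between genes, because probe sets differ in brightness for the same amount of RNA. The targeted gene stood at 6.65, 6.59 and 6.15 in Control r1 to r3, at 5.39, 5.41 and 5.44 in NF1 RNAi, and at 5.44, 5.72 and 5.39 with U0126. Nf1 fell by 1.05 ± 0.13 after knockdown (adjusted p = 0.000695), and no knockdown array overlapped a control array. With U0126 it differed from Control cells by −0.95 ± 0.13 (adjusted p = 0.000662). Of 10 Schwann cell markers 7 were measured, with ranges over the 9 arrays of 13.08 to 14.05 for S100b, 11.06 to 11.47 for Sox10, 12.32 to 13.33 for Ngfr, 9.92 to 12.96 for Pmp22, 8.75 to 10.41 for Erbb3, 7.31 to 9.68 for Gfap and 5.14 to 6.97 for Egr2. Egr2 and Pmp22 fell and S100b rose after knockdown, and S100b, Erbb3, Gfap and Egr2 fell with U0126 against NF1 RNAi. The summed intensity of 10 macrophage and leukocyte markers ran from 405 to 447 in Control arrays, 470 to 482 in NF1 RNAi and 500 to 560 with U0126. For 7 endothelial and mural markers the summed intensity ran from 484 to 643, 444 to 476 and 446 to 567. For 10 fibroblast markers it ran from 37222 to 39286, 30477 to 31609 and 23092 to 31046. The fibroblast sum was mostly Col1a1 and Col1a2. Of the other fibroblast markers Col3a1 ran from 9.80 to 12.83, Ogn from 8.31 to 10.80 and Mfap5 from 4.98 to 7.26, while Dcn stayed between 3.86 and 4.30 and Lum between 3.03 and 3.41. For 8 neuronal markers, which include the filament genes Nefl and Nefm, the sums were 5067 to 8840, 1360 to 2492 and 4120 to 4813. After knockdown 2 of the fibroblast markers fell and 1 rose, and for the macrophage markers it was 0 and 1. For the endothelial markers it was 1 and 0, and for the neuronal markers 3 and 1. Of all genes 13.3% fell and 13.0% rose there. With U0126 against NF1 RNAi the same lists had 1 and 1, 0 and 1, 0 and 0, and 0 and 3. All genes had 7.02% and 6.71%. With both treatments against Control cells, where 4 Schwann markers fell and 1 rose, these lists had 4 and 1, 0 and 3, 0 and 0, and 1 and 1. All genes then had 17.6% and 17.9%. The part of these markers in the results was not tested.

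The replication genes set Control r1 apart from the other control arrays. Its level exceeded the mean of Control r2 and r3 by a median of 0.48 over the 39 members, against 0.01 over all genes. It was the highest control array for 35 members and the highest of all 9 arrays for 31. The excess was over 0.5 for 19 members and over 1 for 7, and it ran from −0.03 for Dnmt1 to 1.78 for Uhrf1. By role it was largest for the nucleotide supply, G1/S regulator and helicase activation genes, with medians of 0.72, 0.84 and 0.96, and smallest for the clamp and clamp loader group, with a median of 0.18. For the members the same median was 0.00 for replicate 1 of NF1 RNAi and 0.04 with U0126. For 27 measured G2 and mitosis genes the excess of Control r1 had a median of 1.97. Over all genes, the SD of the log2 differences was 0.32 and 0.37 between Control r1 and its partners and 0.14 between Control r2 and r3. It was 0.21 and 0.25 against 0.15 in NF1 RNAi and 0.23 and 0.27 against 0.16 with U0126, so replicate 1 was the farthest array in every group. The beta-actin 3′ probe set exceeded the 5′ one by 0.90 on Control r1 and by 0.62 and 0.60 on the other control arrays, with 0.78 to 0.87 over the 6 knockdown arrays. The part of these differences in the results was not tested. Counts of called members and their medians are given with and without Control r1, and differences of single genes without it stand beside many of them.

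**Figure D1:**
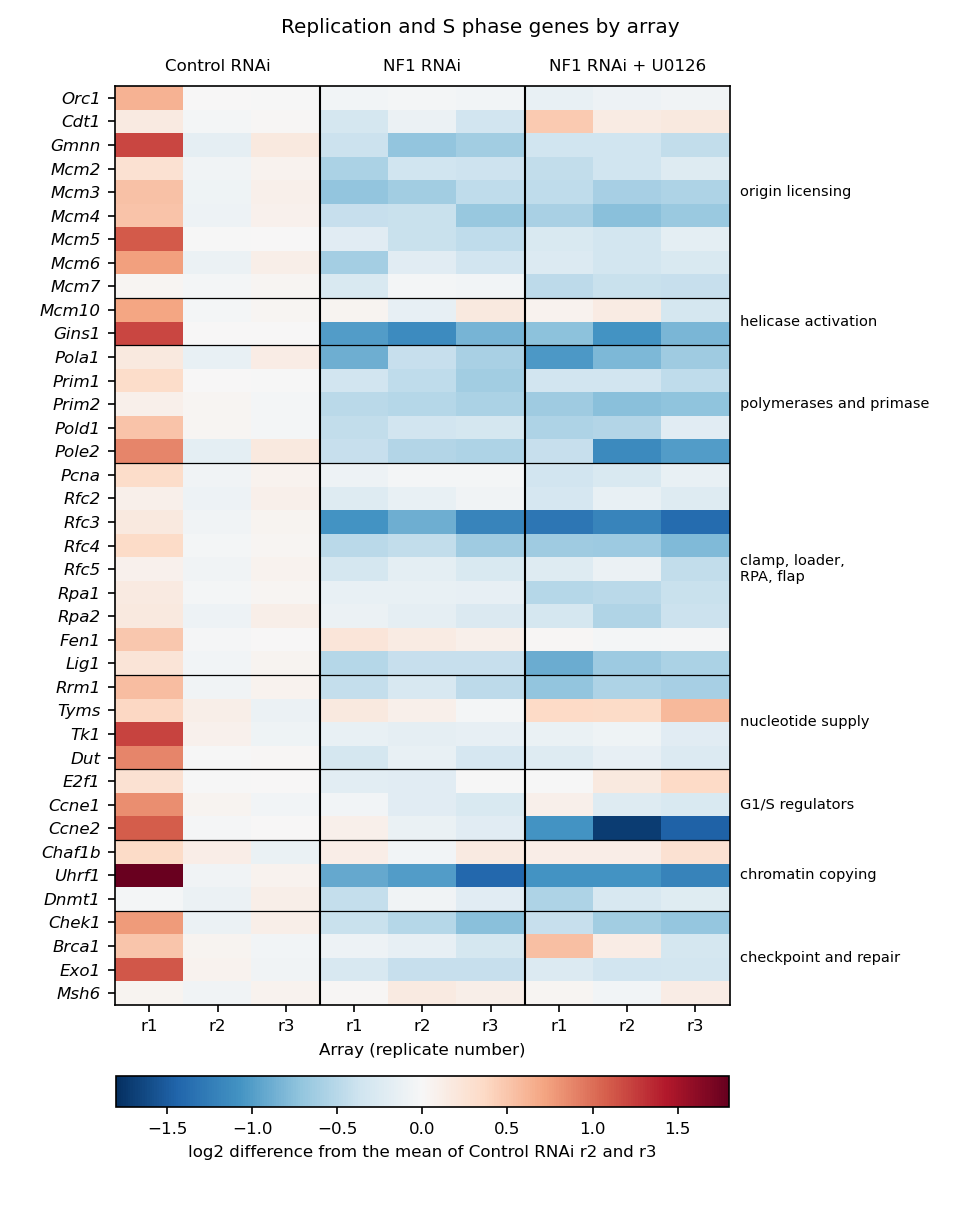
Level of each of the 39 measured genes on each of the 9 arrays, as the log2 difference from the mean of Control r2 and r3, with genes in rows by role and arrays in columns by group. Control r1 is red in most rows, with Uhrf1 the highest at 1.78, and Rfc3, Gins1 and Uhrf1 are blue on all 6 knockdown arrays.

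Many replication genes carry E2F sites near their start, so the promoters were searched for the E2F consensus and the windows of genes that the results turn on are shown. The consensus was 8 letters long, TTTCCCGC, TTTCGCGC, TTTGCCGC or TTTGGCGC, on either strand. The search ran from 250 bases before to 50 bases after each annotated start in the RefSeq promoters of rat build GRCr8. Of the 42 listed genes 36 had an entry, and 18 of these held a match, in 18 of 39 promoters or 46.2%. Over all 33469 promoters the share was 2.14%, and over promoters of the genes on the array it was 3.52%. All 7 licensing genes with an entry held a match. The windows below run from 100 bases before the start to 30 bases from it onwards, 5′ to 3′ on the gene's own strand, with the matches in capitals on whichever strand they lie. Gins1, Rfc3, Mcm3, Mcm2 and Chek1 are shown because they fell after knockdown, Mcm7 and Cdt1 because they moved in opposite directions with U0126, and Prim2 because it fell with no match in its window.
Gins1, chr3:160184820-160184949, plus strand: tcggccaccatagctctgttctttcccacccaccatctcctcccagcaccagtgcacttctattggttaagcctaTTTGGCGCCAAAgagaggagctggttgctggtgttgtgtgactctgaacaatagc
Rfc3, chr12:5836468-5836597, plus strand: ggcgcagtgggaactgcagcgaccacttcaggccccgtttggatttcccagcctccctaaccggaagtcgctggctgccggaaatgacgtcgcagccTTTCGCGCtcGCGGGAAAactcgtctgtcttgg
Mcm3, chr9:30733717-30733846, minus strand: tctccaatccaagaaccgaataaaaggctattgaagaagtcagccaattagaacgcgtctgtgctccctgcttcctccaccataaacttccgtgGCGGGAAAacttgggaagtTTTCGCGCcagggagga
Mcm2, chr4:122918065-122918194, minus strand: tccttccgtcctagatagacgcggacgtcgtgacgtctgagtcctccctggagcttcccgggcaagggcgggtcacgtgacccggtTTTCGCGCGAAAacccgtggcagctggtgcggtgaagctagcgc
Chek1, chr8:44629814-44629943, minus strand: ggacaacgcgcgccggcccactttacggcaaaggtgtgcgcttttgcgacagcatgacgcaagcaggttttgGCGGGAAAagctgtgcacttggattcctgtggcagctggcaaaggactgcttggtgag
Mcm7, chr12:22163149-22163278, minus strand: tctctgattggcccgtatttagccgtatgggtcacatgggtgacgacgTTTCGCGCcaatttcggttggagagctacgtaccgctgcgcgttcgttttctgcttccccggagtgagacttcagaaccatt
Cdt1, chr19:67529149-67529278, plus strand: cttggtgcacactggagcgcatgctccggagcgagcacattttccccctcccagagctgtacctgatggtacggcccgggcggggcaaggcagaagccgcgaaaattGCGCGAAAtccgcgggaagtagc
Prim2, chr9:43400425-43400554, minus strand: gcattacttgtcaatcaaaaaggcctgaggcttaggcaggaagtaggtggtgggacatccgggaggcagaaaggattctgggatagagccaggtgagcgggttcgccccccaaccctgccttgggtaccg

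In Gins1, Mcm2, Mcm5 and Mcm6 a pair of matches on opposite strands overlapped, and the pairs of Gins1 and Mcm2 form palindromes. Of the 28 matches in the 18 genes, 12 began within 100 bases before the start, 7 began farther before it and 9 began after it. Among members that fell after knockdown, 10 of 15 genes with an entry held a match, and among measured members that did not fall it was 8 of 20. Pcna, Rfc4, Prim1, Rrm1 and Tk1 were among the 18 members with no match to these letters. Of the other replication factors listed for comparison 16 of 33 genes held a match, and of the G2 and mitosis genes 1 of 24. A match describes letters in the window and was not tested for binding.

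**Figure D2:**
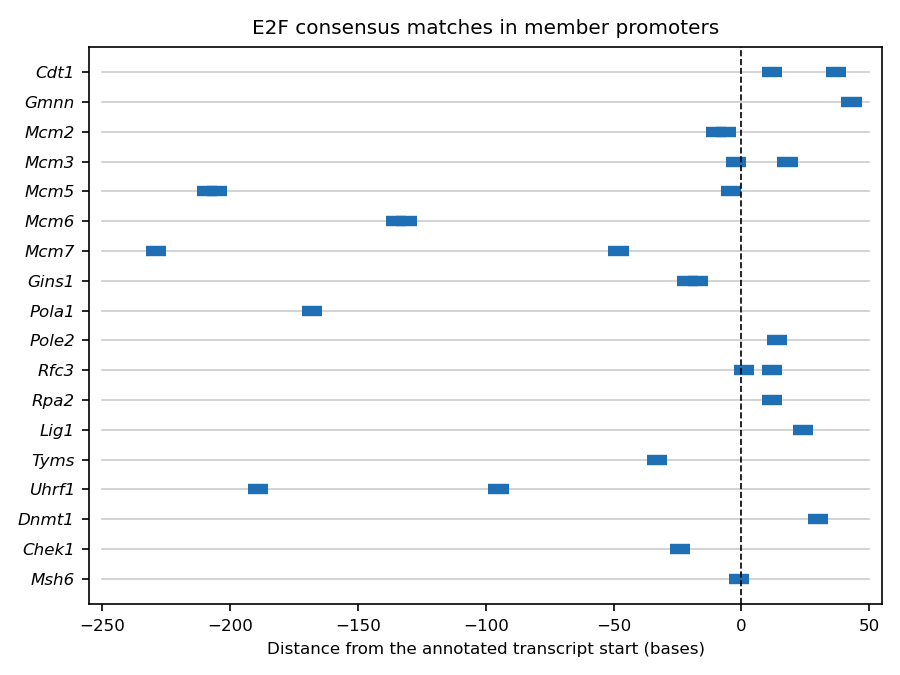
Positions of the E2F consensus matches in the promoters of the 18 members that hold one, with the distance from the annotated transcript start in bases on the x axis and 1 row for each gene. Of the 28 matches, 12 begin in the 100 bases before the start, and Mcm5, Mcm6, Mcm7, Pola1 and Uhrf1 hold the 7 that lie farther before it.

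After Nf1 knockdown 16 of the 39 measured replication genes fell and 0 rose, which is 41% lower against 13.3% lower and 13.0% higher over all genes. They were Gmnn, Mcm2, Mcm3, Mcm4 and Mcm6 among licensing factors, Gins1, the polymerase and primase genes Pola1, Prim1, Prim2 and Pold1, then Rfc3, Rfc4 and Lig1, and last Rrm1, Uhrf1 and Chek1. At an unadjusted p under 0.05, 24 members were lower and 0 higher in the same limma fit, against 18.0% and 18.6% of all genes. The median log2 difference over the members was −0.52, against 0.02 over all genes, with a range from −1.71 for Uhrf1 to 0.08 for Msh6 and 38 members below 0. Every NF1 RNAi array lay below every Control array for 27 members, and for 20.0% of all genes. The RNA came from whole cultures, so fewer cells in S phase and less RNA per cell cannot be told apart. Without Control r1, 19 members fell, the same 16 with Dut, Exo1 and Mcm5, against 13.2% of all genes. The median of the members was then −0.26, and for 15 of the 39 the difference was smaller in size by over 1.5 times, 3 of them called (Gmnn, Mcm6 and Uhrf1). Leaving out each array in turn kept 10 genes called every time, namely Mcm2, Mcm3, Mcm4, Gins1, Pola1, Prim1, Prim2, Rfc3, Rfc4 and Lig1. The lowest count, 10, came without NF1 RNAi r3, which alone ended the calls of Uhrf1 (adjusted p = 0.0563) and Chek1 (adjusted p = 0.0631). Pold1 was lost without any 1 of the NF1 RNAi arrays, Rrm1 without NF1 RNAi r1 or r3, Gmnn in 5 of 9 fits and Mcm6 in 7 of 9.

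**Figure D3:**
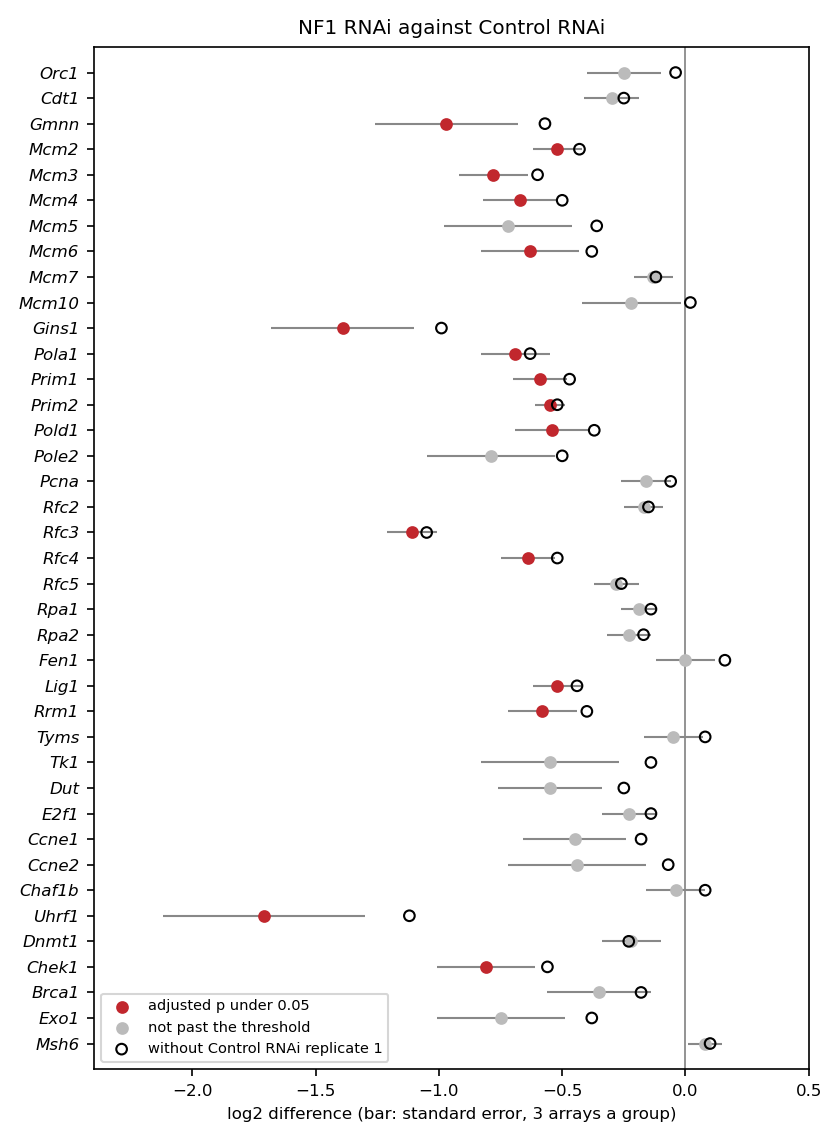
Log2 difference of each measured gene between NF1 RNAi and Control RNAi, with bars for the standard error of the fit, red points for genes past the adjusted p of 0.05, and open circles for the difference without Control r1. The 16 red points all lie below 0, and the open circles lie nearer to 0 for most genes, as for Uhrf1 (−1.71 and −1.12).

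Few of these genes passed the test when U0126 was added to the knockdown. Against NF1 RNAi alone 3 members fell, Ccne2, Mcm7 and Rpa1, and 1 rose, Cdt1, where 7.02% of all genes fell and 6.71% rose. The members' share of 7.69% lower was close to that background. Every array with U0126 lay below every NF1 RNAi array for 12 members and above for 2, against 2285 and 2528 of 14213 genes. Their median difference was −0.05, against 0.02 over all genes. Of the 16 genes that fell after knockdown 0 passed the test with U0126: their differences ran from −0.26 for Lig1 to 0.19 for Gmnn, 6 above 0 and 10 below, and the interval held 0 for 13 of them. At an unadjusted p under 0.05, 7 members were lower and 3 higher, against 13.2% and 14.1% of all genes. With the replicate number as a block, 5 fell and 1 rose, against 10.1% and 9.53% of all genes. Prim2 (adjusted p = 0.0485) and Rpa2 (adjusted p = 0.0444) were added. Leaving out each array in turn kept Cdt1 and Rpa1 called every time, and left 1 gene lower without NF1 RNAi r2 and 1 without NF1 RNAi + U0126 r2. Without Control r1, which enters this comparison only through the shared spread, Tyms also rose, for 2 in all, with 3 lower, against 8.82% and 9.39% of all genes. In that fit 11 members were lower and 3 higher at an unadjusted p under 0.05, against 2139 and 2272 of 14213 genes.

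**Figure D4:**
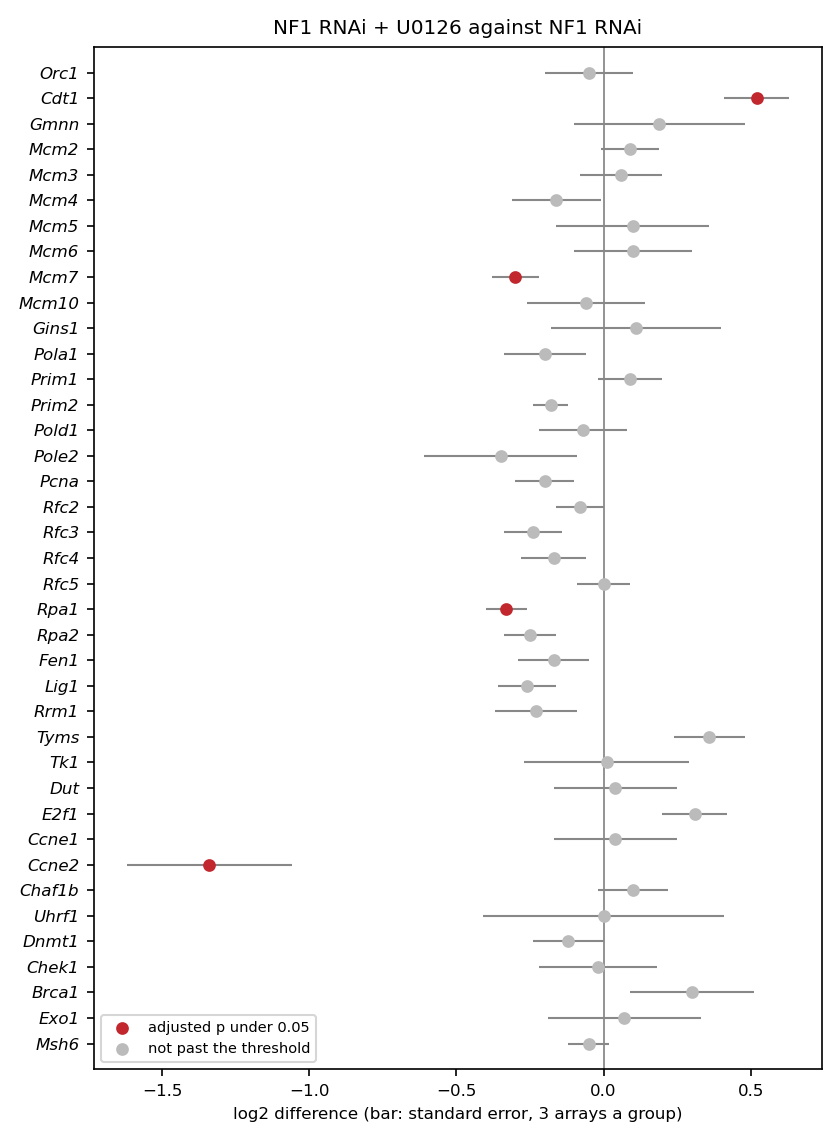
Log2 difference of each measured gene between NF1 RNAi + U0126 and NF1 RNAi, with bars for the standard error and red points for genes past the adjusted p of 0.05. Most points lie close to 0, with Ccne2 at −1.34 far to the left and Cdt1 at 0.52 to the right.

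Cells with both treatments differed from Control cells more widely. In this comparison 23 members fell and 0 rose, against 17.6% and 17.9% of all genes, with a median of −0.52 against 0.04. At an unadjusted p under 0.05, 28 were lower and 1, Tyms, was higher, against 21.1% and 23.5% of all genes. Every array with U0126 lay below every Control array for 29 members, and for 21.7% of all genes. Without Control r1, 24 fell, against 18.0% of all genes, 20 of them shared with the full fit; Dnmt1, Rfc2 and Rfc5 were lost, Dut, Exo1, Gmnn and Mcm5 were added, Tyms rose, and the median was −0.36. Of the members, 14 passed in both comparisons with Control cells, Gmnn and Mcm6 only in NF1 RNAi, and 9 only with U0126. Those 9 were Ccne2, Dnmt1, Mcm7, Pcna, Pole2, Rfc2, Rfc5, Rpa1 and Rpa2, of which only Ccne2, Mcm7 and Rpa1 passed the direct comparison of U0126 with NF1 RNAi alone. The comparisons share the same Control arrays. When each array was set on its median, the median of all genes shifted to 0.12 in this comparison and 26.3% of all genes rose and 14.3% fell, while 20 members fell and 2, Cdt1 and Tyms, rose. For NF1 RNAi against Control cells that setting gave 17.9% of all genes higher and 10.9% lower, with 15 members lower and 0 higher.

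The licensing genes load the helicase onto origins in G1. Of 9 measured, 5 fell after knockdown, 1 fell and 1 rose with U0126 against NF1 RNAi, and 4 were lower with both treatments than in Control cells. Over all genes these shares were 13.3%, then 7.02% and 6.71%, and 17.6%. Mcm3, a subunit of the helicase ring, stood at 7.59, 6.98 and 7.15 in Control r1 to r3, at 6.35, 6.43 and 6.60 in NF1 RNAi, and at 6.60, 6.46 and 6.51 with U0126. All 6 knockdown arrays were below the lowest Control array, and the 2 knockdown groups overlapped. Mcm3 fell by 0.78 ± 0.14 after knockdown (interval −1.10 to −0.45, adjusted p = 0.00417), by 0.60 without Control r1, and differed by 0.06 ± 0.14 with U0126 (interval −0.26 to 0.39). Mcm4, another ring subunit, stood at 9.19, 8.58 and 8.75 in Control cells, at 8.25, 8.27 and 7.99 in NF1 RNAi, and at 8.08, 7.92 and 8.0 with U0126. Its groups were again separate from Control cells and overlapped with each other, and it fell by 0.67 ± 0.15 after knockdown (adjusted p = 0.00956) and by 0.84 ± 0.15 with both treatments (adjusted p = 0.00216). Without Control r1 these differences were −0.50 and −0.66. Mcm2, whose promoter holds the palindrome shown above, fell by 0.52 ± 0.10 (adjusted p = 0.00547), with a difference of −0.43 without Control r1. Mcm6 fell by 0.63 ± 0.20 (adjusted p = 0.042), and this call depended on the setting: the difference was −0.38 without Control r1 (adjusted p = 0.0464), and the call was lost with the replicate block (adjusted p = 0.0507), quantile normalization (adjusted p = 0.0562) and median centring (adjusted p = 0.0524).

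The remaining subunits of the ring did not pass after knockdown in that fit. Mcm5 differed by −0.72 ± 0.26 (adjusted p = 0.0699), and it passed without Control r1 (−0.36, adjusted p = 0.0157) and with the block (adjusted p = 0.0377). Mcm7 stood at 9.78, 9.71 and 9.79 in Control cells, at 9.47, 9.71 and 9.70 in NF1 RNAi, and at 9.28, 9.35 and 9.34 with U0126. The U0126 arrays were the lowest of all, while the NF1 RNAi arrays reached the Control range. Mcm7 fell with U0126 by 0.30 ± 0.08 against NF1 RNAi (adjusted p = 0.0284) and by 0.43 ± 0.08 against Control cells (adjusted p = 0.00194). The direct call was lost, with adjusted p up to 0.11, without NF1 RNAi r2 or r3 or without any 1 of the U0126 arrays.

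Cdt1, which brings the helicase to the origin, and Gmnn, which encodes geminin, the protein that holds Cdt1 inactive after licensing, differed in pattern. Cdt1 stood at 7.83, 7.64 and 7.69 in Control cells, at 7.36, 7.57 and 7.33 in NF1 RNAi, and at 8.14, 7.82 and 7.85 with U0126. The U0126 arrays were above every NF1 RNAi array. Cdt1 rose with U0126 by 0.52 ± 0.11 (interval 0.28 to 0.76, adjusted p = 0.0125), the only member to rise there. After knockdown alone its difference of −0.30 ± 0.11 did not pass (adjusted p = 0.0645). Gmnn stood at 8.45, 7.09 and 7.42 in Control cells, at 6.87, 6.54 and 6.63 in NF1 RNAi, and at 6.89, 6.89 and 6.81 with U0126. Control r1 was the highest array by far, and both knockdown groups were below all Control arrays. Gmnn fell by 0.97 ± 0.29 after knockdown (adjusted p = 0.0352) and by 0.57 without Control r1 (adjusted p = 0.00919), and its second probe set differed by −0.08 ± 0.09. The call was lost with the mean of both probe sets (adjusted p = 0.0652), with only these 2 groups in the fit (adjusted p = 0.0823), without any 1 of the NF1 RNAi arrays, and without NF1 RNAi + U0126 r2 or r3. With U0126 the difference from Control cells of −0.79 ± 0.29 had an adjusted p of 0.0617, or 0.0278 with the block. Orc1, the largest subunit of the origin recognition complex, was dim, between 3.17 and 3.93 on the arrays, and did not pass in any of the 3 comparisons.

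Gins1, a subunit of the GINS complex that turns the loaded ring into a working helicase, was far lower in both knockdown groups. It stood at 7.04, 5.84 and 5.84 in Control cells, at 4.84, 4.71 and 5.0 in NF1 RNAi, and at 5.10, 4.76 and 5.02 with U0126. The lowest Control array was above every knockdown array. Gins1 fell by 1.39 ± 0.29 after knockdown, to 38.3% of its Control level (interval −2.03 to −0.74, adjusted p = 0.00727), and by 0.99 without Control r1. With U0126 it differed by 0.11 ± 0.29 from NF1 RNAi (interval −0.54 to 0.76) and was lower than in Control cells by 1.28 ± 0.29 (adjusted p = 0.00751). That last difference was −0.88 without Control r1. Mcm10, which helps to activate the helicase, differed by −0.22 ± 0.20 after knockdown and by 0.02 without Control r1, and its groups overlapped. Gins4, a GINS gene outside the members, fell by 0.66 ± 0.08 (adjusted p = 0.000697).

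Of the polymerase and primase genes 4 of 5 fell after knockdown and all 5 were lower with both treatments, against 13.3% and 17.6% of all genes. Prim1 and Prim2 encode the small and large subunits of primase, which starts each strand, and Pola1 the catalytic subunit of the polymerase it works with. Prim2 stood at 8.37, 8.31 and 8.24 in Control cells, at 7.79, 7.77 and 7.71 in NF1 RNAi, and at 7.64, 7.53 and 7.55 with U0126. The 3 groups did not overlap, and Control r1 was only 0.09 above its partners. Prim2 fell by 0.55 ± 0.06 after knockdown (interval −0.68 to −0.41, adjusted p = 0.000291), by 0.52 without Control r1, and by 0.73 ± 0.06 with both treatments (adjusted p = 3.23e-05). Its step from NF1 RNAi to U0126, −0.18 ± 0.06, had an adjusted p of 0.0754, or 0.0485 with the block. Pola1 stood at 7.26, 6.95 and 7.23 in Control cells, at 6.21, 6.67 and 6.51 in NF1 RNAi, and at 6.06, 6.28 and 6.45 with U0126. The knockdown groups overlapped each other and not the Control arrays, and Pola1 fell by 0.69 ± 0.14 after knockdown (adjusted p = 0.00741) and by 0.88 ± 0.14 with both treatments (adjusted p = 0.00131). These differences were −0.63 and −0.83 without Control r1. Prim1 fell by 0.59 ± 0.11 (adjusted p = 0.00401) and Pold1, the catalytic subunit of the lagging strand polymerase, by 0.54 ± 0.15 (adjusted p = 0.0249). Without Control r1 they differed by −0.47 and −0.37.

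Pole2, a subunit of the leading strand polymerase, stood at 6.73, 5.67 and 6.03 in Control cells, at 5.44, 5.32 and 5.30 in NF1 RNAi, and at 5.44, 4.71 and 4.85 with U0126. The knockdown arrays were all below the Control arrays. Its difference after knockdown, −0.79 ± 0.26, missed the threshold (adjusted p = 0.0551). It was −0.50 without Control r1 (adjusted p = 0.111) and passed with the block (adjusted p = 0.007). With both treatments Pole2 fell by 1.14 ± 0.26 (adjusted p = 0.00852), with a difference of −0.85 without Control r1. The step with U0126 alone was −0.35 ± 0.26 (interval −0.95 to 0.24), and it passed without the replicate 1 arrays of all groups (−0.53, adjusted p = 0.0206).

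Of the genes for the clamp, its loader, single-strand binding and flap processing, 3 of 9 fell after knockdown, against 13.3% of all genes. With both treatments 8 of 9 were lower, against 17.6% of all genes. The clamp loader, replication factor C, opens the Pcna ring onto primed DNA, and its subunits differed in size of change. Rfc3 stood at 8.75, 8.51 and 8.62 in Control cells, at 7.49, 7.69 and 7.38 in NF1 RNAi, and at 7.27, 7.38 and 7.18 with U0126. The gap between the lowest Control array and the highest knockdown array was wider than the range of any group, and Control r1 was 0.18 above its partners. Rfc3 fell by 1.11 ± 0.10 after knockdown, to 46.5% of its Control level (interval −1.32 to −0.89, adjusted p = 0.000104), by 1.05 without Control r1, and by 1.35 ± 0.10 with both treatments (adjusted p = 1.8e-05). Rfc4 fell by 0.64 ± 0.11 (adjusted p = 0.0025), with a difference of −0.52 without Control r1. Rfc2 and Rfc5 differed by −0.17 ± 0.08 and −0.28 ± 0.09, with adjusted p of 0.139 and 0.05, and Rfc5 did not pass before rounding. Both passed with both treatments, Rfc2 by −0.25 ± 0.08 (adjusted p = 0.0323) and Rfc5 by −0.28 ± 0.09 (adjusted p = 0.0387). Those 2 calls were lost without Control r1 (adjusted p = 0.0775 and 0.0864) or without Control r3, and under quantile normalization or median centring. Over the fits with each array left out in turn, the Rfc2 call was lost in 5 of 9 and the Rfc5 call in 7 of 9. A second probe set of Rfc5 differed by −0.18 ± 0.09 with both treatments and did not pass (adjusted p = 0.156 over all probe sets).

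Rpa1 is the large subunit of replication protein A, which coats single-stranded DNA. It stood at 9.12, 8.92 and 9.0 in Control cells, at 8.82, 8.82 and 8.81 in NF1 RNAi, and at 8.44, 8.48 and 8.56 with U0126. The 3 groups did not overlap and were ordered Control, NF1 RNAi, then U0126. Rpa1 fell with U0126 by 0.33 ± 0.07 against NF1 RNAi (interval −0.47 to −0.18, adjusted p = 0.0114), while the first step of −0.19 ± 0.07 did not pass (adjusted p = 0.0607). Its partner Rpa2 differed by −0.23 ± 0.09 in the first step and by −0.25 ± 0.09 in the second, with adjusted p of 0.0947 and 0.102, or 0.042 and 0.0444 with the block, and it was lower by 0.47 ± 0.09 over both (adjusted p = 0.00287). Lig1, the ligase that joins Okazaki fragments, fell by 0.52 ± 0.10 after knockdown (adjusted p = 0.00472), and a second probe set fell by 0.38 ± 0.10. Without Control r1 the first differed by −0.44. Pcna, the clamp itself, differed by −0.16 ± 0.10 after knockdown (interval −0.39 to 0.07) and was lower by 0.37 ± 0.10 with both treatments (adjusted p = 0.0204), a call lost without U0126 r1 or r2. Fen1, the flap nuclease, stayed between 7.24 and 7.75 on the 9 arrays and did not pass in any comparison.

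**Figure D5:**
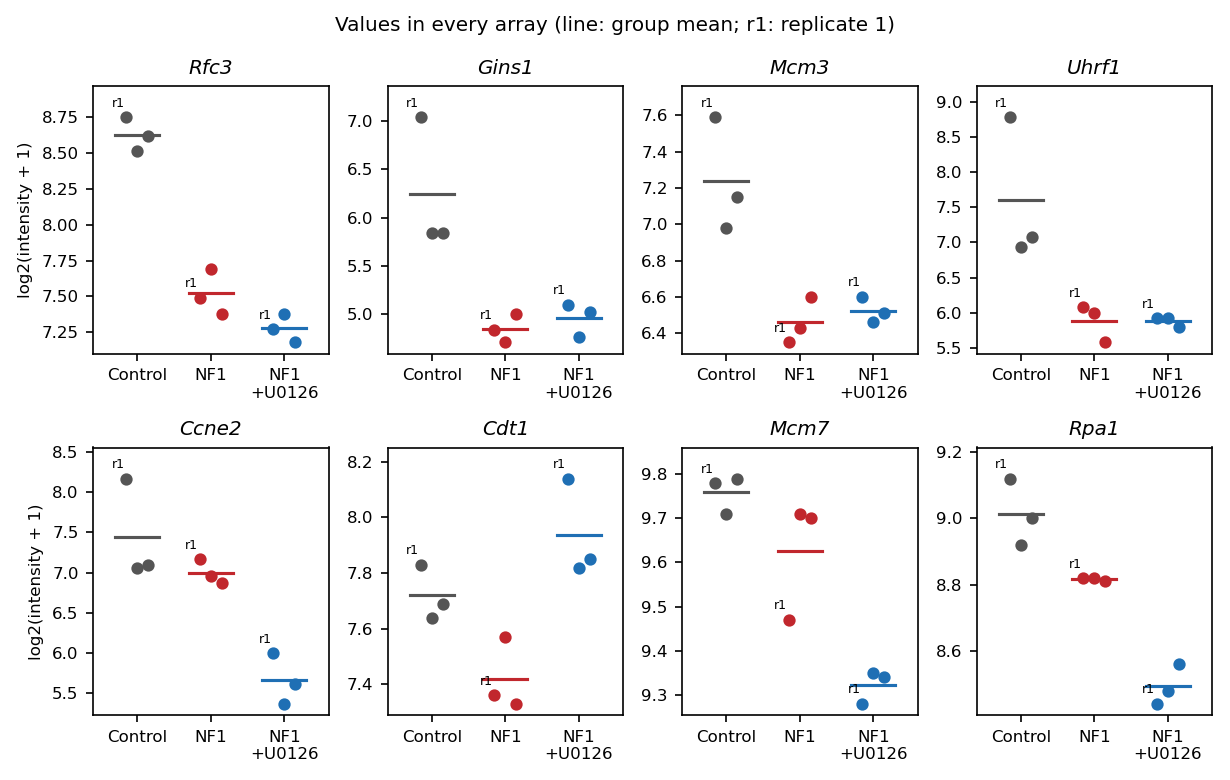
Level of 8 members on each array as log2(intensity + 1), with a line for each group mean and r1 marking replicate 1; each panel has its own y axis, which does not start at 0. Rfc3, Gins1, Mcm3 and Uhrf1 are lower in both knockdown groups than in any Control array, while Ccne2, Mcm7 and Rpa1 are lowest with U0126 and Cdt1 is highest there.

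Among the nucleotide supply genes 1 of 4 fell after knockdown, against 13.3% of all genes. Rrm1, the large subunit of ribonucleotide reductase, which makes deoxynucleotides, stood at 9.37, 8.75 and 8.87 in Control cells, at 8.38, 8.52 and 8.34 in NF1 RNAi, and at 8.10, 8.25 and 8.21 with U0126. The 3 groups did not overlap. Rrm1 fell by 0.58 ± 0.14 after knockdown (adjusted p = 0.0158) and by 0.81 ± 0.14 with both treatments (adjusted p = 0.00218). Without Control r1 these differences were −0.40 and −0.63. Tyms, thymidylate synthase, behaved otherwise, with 6.29, 6.03 and 5.81 in Control cells, 6.10, 6.01 and 5.88 in NF1 RNAi, and 6.28, 6.26 and 6.51 with U0126. Its U0126 arrays were above every NF1 RNAi array, with a difference of 0.36 ± 0.12 that did not pass (adjusted p = 0.0973) and passed without Control r1 (adjusted p = 0.0359). Tk1, thymidine kinase, and Dut, which removes dUTP, both differed by −0.55 after knockdown, with SE of 0.28 and 0.21, and without Control r1 by −0.14 and −0.25. Tk1 had 3 probe sets, whose differences after knockdown were −0.55, −1.02 and 0.10, and none of these passed. With both treatments they differed from Control cells by −0.54, −1.14 and 0.21, and the second passed (adjusted p = 0.0409 over all probe sets).

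None of the 3 G1/S regulators among the members passed after knockdown, with 0 also at an unadjusted p under 0.05. Ccne2 and Ccne1 encode the E-type cyclins that drive Cdk2 at the start of S phase. Ccne2 stood at 8.17, 7.06 and 7.09 in Control cells, at 7.17, 6.96 and 6.87 in NF1 RNAi, and at 6.0, 5.37 and 5.62 with U0126. The U0126 arrays were below all others, and NF1 RNAi overlapped Control r2 and r3. Ccne2 fell with U0126 by 1.34 ± 0.28 against NF1 RNAi, to 39.6% (interval −1.98 to −0.70, adjusted p = 0.0145), and its difference from Control cells was −1.77 ± 0.28 (adjusted p = 0.00124), or −1.41 without Control r1. The direct call was lost without NF1 RNAi r1 or r2 or U0126 r2, with adjusted p up to 0.0615. The probe sets of Ccne2 disagreed: a second one differed by 0.02 ± 0.14 with U0126 and by −0.50 ± 0.14 after knockdown (adjusted p = 0.0283 over all probe sets). Ccne1 stood at 7.68, 6.89 and 6.79 in Control cells, at 6.79, 6.64 and 6.56 in NF1 RNAi, and at 6.93, 6.61 and 6.56 with U0126. Its groups overlapped, and its difference after knockdown, −0.45 ± 0.21, had an adjusted p of 0.161. It was −0.18 without Control r1 (adjusted p = 0.341), and the block gave an adjusted p of 0.0304. With both treatments the difference of −0.42 ± 0.21 had an adjusted p of 0.164, or 0.0342 with the block, and was −0.14 without Control r1 (adjusted p = 0.405). E2f1, an activating E2F, differed by −0.23 ± 0.11 after knockdown and by 0.31 ± 0.11 with U0126, with adjusted p of 0.183 and 0.114. The first was −0.14 without Control r1, and the second passed with array weights (adjusted p = 0.0219) and without the replicate 1 arrays of all groups (0.37, adjusted p = 0.0361).

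Uhrf1, which recognises hemimethylated DNA behind the fork and recruits Dnmt1, had the largest difference of all members after knockdown. It stood at 8.78, 6.94 and 7.07 in Control cells, at 6.08, 5.99 and 5.58 in NF1 RNAi, and at 5.92, 5.93 and 5.80 with U0126. Control r1 was 1.78 above its partners, which were themselves above all 6 knockdown arrays. Uhrf1 fell by 1.71 ± 0.41 after knockdown, to 30.5% of its Control level (adjusted p = 0.015), and by 1.12 without Control r1 (adjusted p = 0.000685). With U0126 its difference from NF1 RNAi was 0.00 ± 0.41 (interval −0.94 to 0.93), and from Control cells −1.72 ± 0.41 (adjusted p = 0.0107), or −1.12 without Control r1. Dnmt1, the maintenance DNA methyltransferase, stood at 8.80, 8.73 and 8.94 in Control cells, at 8.40, 8.77 and 8.63 in NF1 RNAi, and at 8.28, 8.54 and 8.61 with U0126. The U0126 arrays were below the Control arrays and overlapped NF1 RNAi. Dnmt1 passed with both treatments (−0.35 ± 0.12, adjusted p = 0.0449), and that call was lost without any single Control array (adjusted p = 0.0686 without r1) and under quantile normalization or median centring. Chaf1b, a subunit of the chromatin assembly factor that places histones on new DNA, differed by −0.04 ± 0.12 after knockdown. Its partner subunit Chaf1a, outside the members, fell by 0.86 ± 0.15 (adjusted p = 0.00325).

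Of the checkpoint and repair genes 1 of 4 fell after knockdown, against 13.3% of all genes. Chek1, the kinase that slows the cycle when forks stall, stood at 7.71, 6.85 and 7.06 in Control cells, at 6.55, 6.44 and 6.20 in NF1 RNAi, and at 6.54, 6.32 and 6.25 with U0126. All knockdown arrays were below all Control arrays, and the knockdown groups overlapped. Chek1 fell by 0.81 ± 0.20 after knockdown (adjusted p = 0.0167) and by 0.56 without Control r1 (adjusted p = 0.0123), and with both treatments it was lower by 0.83 ± 0.20 (adjusted p = 0.0107). That last difference was −0.58 without Control r1. Exo1, an exonuclease of mismatch repair, differed by −0.75 ± 0.26 (adjusted p = 0.0617) and passed without Control r1 (−0.38, adjusted p = 0.0053) and with the block (adjusted p = 0.0315). With both treatments its difference was −0.69 ± 0.26 (adjusted p = 0.0682), which passed without Control r1 (−0.31, adjusted p = 0.00901) and with the block (adjusted p = 0.0362). Brca1, which acts in repair of broken forks, stood at 5.41, 4.96 and 4.86 in Control cells, at 4.82, 4.76 and 4.60 in NF1 RNAi, and at 5.45, 5.05 and 4.60 with U0126. Its U0126 arrays spread over the whole range of the others, and it did not pass in any comparison. Msh6, a mismatch recognition subunit, stayed between 8.70 and 8.93 on the 9 arrays, the one member with a positive difference after knockdown (0.08 ± 0.07, interval −0.08 to 0.24).

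Other genes of the same processes were taken from companion lists. Of 36 measured further replication factors 7 fell and 3 rose after knockdown, which is 19.4% and 8.33% against 13.3% and 13.0% of all genes. Their median was −0.19, and −0.12 without Control r1. Dscc1, a subunit of an alternative clamp loader, fell by 1.53 ± 0.36 (adjusted p = 0.0129). Its Control r1 was 1.32 above its partners, the largest excess in this list, and without Control r1 the lowest difference in the list was −1.09. Orc2, an origin recognition subunit, rose by 0.66 ± 0.08 (adjusted p = 0.000426). With U0126 against NF1 RNAi 3 of these fell and 2 rose, 8.33% and 5.56% against 7.02% and 6.71% of all genes, which is near the background. Among them were Orc2, which fell by 0.49 ± 0.08 (adjusted p = 0.00373), and Pole4, which rose by 0.40 ± 0.10 (adjusted p = 0.0303). With both treatments against Control cells 9 fell and 4 rose, 25% and 11.1% against 17.6% and 17.9% of all genes.

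Of 25 measured G1/S regulators outside the members, 6 fell and 5 rose after knockdown, 24% and 20% against 13.3% and 13.0% of all genes. With U0126 against NF1 RNAi 6 fell and 1 rose, 24% and 4% against 7.02% and 6.71%. Rbl1, a pocket protein related to the retinoblastoma protein, fell by 1.07 ± 0.12 after knockdown (adjusted p = 0.000415). Ccnd1, which encodes cyclin D1, rose by 0.75 ± 0.24 after knockdown (adjusted p = 0.0459) and fell by 2.42 ± 0.24 with U0126 (adjusted p = 0.000381). In the first comparison its groups overlapped, with Control r1 at 12.23 and NF1 RNAi r3 at 12.20. Ccnd2 fell in both steps, by 0.72 ± 0.15 (adjusted p = 0.00822) and by 0.88 ± 0.15 (adjusted p = 0.00567). With both treatments against Control cells 7 of the 25 fell and 2 rose, 28% and 8% against 17.6% and 17.9% of all genes. Cdkn1a, the inhibitor p21, was one of those that rose, by 1.42 ± 0.48 (adjusted p = 0.0486). Its groups overlapped, with Control r1 at 10.75 and U0126 r3 at 10.62. Control r1 of Cdkn1a was 1.74 above its partners, the largest excess in this list.

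G2 and mitosis genes were also lower after knockdown. Of 27 measured, 16 fell and 0 rose after knockdown, with a median of −1.76, where 13.3% of all genes fell. Without Control r1, 18 fell, against 13.2% of all genes, and the median was −1.01. In the fit with all arrays 20 were lower and 0 higher at an unadjusted p under 0.05, against 18.0% and 18.6% of all genes. Ccna2, which encodes the cyclin of S phase and G2, fell by 3.35 ± 0.60 (adjusted p = 0.00355) and by 2.51 without Control r1. Mki67, the proliferation marker Ki-67, fell by 3.24 ± 0.65 (adjusted p = 0.00624) and by 2.32 without that array. With U0126 against NF1 RNAi 0 of the 27 passed in either direction in the limma fit, where 7.02% of all genes fell and 6.71% rose. At an unadjusted p under 0.05 there were also 0, against 13.2% and 14.1% of all genes. These counts depended on the replicate 1 arrays. Without Control r1, 1 fell and 0 rose, against 9.39% and 8.82% of all genes. In that fit 8 were lower and 1 higher at an unadjusted p under 0.05, against 2139 and 2272 of 14213 genes. Without the replicate 1 arrays of all groups 5 fell and 3 rose, against 9.49% and 8.95% of all genes, with 10 lower and 3 higher at an unadjusted p under 0.05. With both treatments against Control cells 19 fell and 0 rose, 70.4% and 0% against 17.6% and 17.9% of all genes. The median was −2.13, or −1.22 without Control r1.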

How the data were processed

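Total RNA from 9 cultures was measured on Affymetrix rat arrays. The deposited values are 1 linear intensity per probe set and array, from 5.62 to 25800.2, which the authors made with RMA, per the submitters' processing notes. RMA corrects background, equalises the distributions of the arrays and summarises probes, so shifts shared by all genes are removed. No software version for it was given in the sources used here. Of 31042 probe sets without controls, 20826 had 1 gene in the platform annotation, 436 several and 9780 none listed. Symbols were updated through RefSeq tables of GRCr8 by gene ID for 20758 probe sets, by accession for 2 and by older symbol for 63, and 3 kept the array's symbol.

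The log2 of the value plus 1 was fitted with limma 3.58.1 in R 4.3.3 (group means model over 9 arrays, 6 residual degrees of freedom, eBayes, Benjamini-Hochberg over 14213 genes, threshold 0.05, no filter on dim genes). That scale understates changes of dim genes. Arrays have no read depth, and their number limits the precision. The members, role groups and companion lists were chosen with earlier results of these data known, so a list gets no test of its own. Values in every array are given for the 8 largest called members of each comparison and for the member with the smallest p in each role. Companion genes named are among the 4 largest called in their list, and the marker genes named were chosen after their values were seen.

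Deviations from group means correlated across genes for all 9 pairs of arrays with the same replicate number, with r from 0.17 to 0.62 (different numbers −0.52 to 0.40, 18 pairs). The labels do not say what the number marks. The ranges overlapped: NF1 RNAi r3 had an r of 0.34 with U0126 r3 and of 0.40 with U0126 r2. Control r2 had 0.17 with NF1 RNAi r2 and 0.23 with NF1 RNAi r3. These values do not show that the number pairs all arrays. A fit with the number as a block (4 residual degrees of freedom) is given where it changes the call of a member. Other alternatives were a filter at log2 6 in 3 arrays, no pseudocount, quantile normalization, median centring, a fit of just the 2 groups, eBayes with an intensity trend and robust hyperparameters, weights for arrays, averaging all probe sets of a gene, an adjusted p of 0.01 and each array left out in turn. Leaving out all replicate 1 arrays was chosen after seeing the data. The fit was tested on simulated data. Tables and figures were made with pandas 2.3.3 and matplotlib 3.10.9 in Python 3.11.15.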

Additional observations from a re-analysis of the deposited data

How the results depend on the processing

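With 3 arrays in each group and levels relative to the other genes of an array, these results describe relative RNA of whole cultures, and no member changed direction with a call in any setting tried. With the replicate number as a block, the members lower were 20 after knockdown, 5 with U0126 against NF1 RNAi and 26 with both treatments. Of all genes 16.2%, 10.1% and 20.3% were lower in those fits, and the calls the block changed stand beside the genes. At an adjusted p of 0.01 the counts lower were 10, 0 and 16, and 0 rose with U0126 against NF1 RNAi. The share of all genes at that threshold is not given here. With array weights 1 member (Msh6) rose after knockdown, against 22.5% of all genes, and the median of the members was −0.26. With U0126 against NF1 RNAi these weights gave 5 lower and 3 higher, against 11.7% and 11.2% of all genes. With both treatments they gave 2 higher, against 27.0%. Using only the 2 groups compared, 2 members rose with U0126 against NF1 RNAi, where 6.99% of all genes rose. With both treatments 1 rose under quantile normalization and 2 under median centring, against 20.6% and 26.3% of all genes. Without the replicate 1 arrays of all groups, the median after knockdown was −0.24. Of the members 3 then rose with U0126 against NF1 RNAi and 1 with both treatments, against 8.95% and 18.9% of all genes. Those last fits ended the calls of Mcm6 and Pold1 after knockdown and of Pcna, Rfc2, Rfc5 and Dnmt1 with both treatments. Array weights, and using only the 2 groups compared, each ended the calls of Mcm6 after knockdown and of Rfc2 and Rfc5 with both treatments, and the latter also that of Pcna (adjusted p = 0.0536). With each array left out in turn, 10 to 20, 1 to 3 and 19 to 25 members fell in the 3 comparisons in the order above, 0, 1 to 2 and 0 to 1 rose, and the medians ran from −0.61 to −0.26, from −0.05 to 0.03 and from −0.66 to −0.36. The causes of these shifts were not tested.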
